A study of Mus musculus with 2 samples.

Results

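The barcodes described here are those with at least 1 unique molecular identifier (UMI, 1 captured transcript) of Rbpjl among mouse pancreatic cells collected after pancreatitis. A barcode, the tag of 1 droplet, was kept with 200 or more genes detected and with mitochondrial transcripts making up no more than 20% of its UMIs. Of 2462 barcodes, 1413 met those limits, 860 of 1717 in the EYFP+ library and 553 of 745 in the EYFP- library. Rbpjl was seen in 95 of the 1413, here called the Rbpjl barcodes, and all 95 were EYFP+. The barcodes were chosen by their measured Rbpjl UMIs, so every comparison of them with other barcodes is a description, without a test.

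Both libraries came from mice of genotype R26[CA]30EYFP on strain background C57Bl/6J, with the treatment given as None in both, and differed in the sorted fraction, EYFP+ or EYFP-. The genotype names an EYFP reporter. The label does not say how, or in which cells, it was switched on. How many animals were used, how old they were and how long after pancreatitis they were sampled is not given in the sources used here. Each fraction was 1 library, so no difference between the fractions has a replicate check. The feature table of 31053 genes held no EYFP transcript, and no count could check the sorting. All intervals below cover counting error only.

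Rbpjl encodes a paralogue of RBPJ, the DNA-binding protein of the Notch pathway. In acinar cells, which make the digestive enzymes of the pancreas, RBPJL joins the bHLH protein PTF1A and an E protein such as TCF3 or TCF12 in the PTF1 complex, which binds the promoters of enzyme genes. Acinar cells store these enzymes in zymogen granules, depend on a large endoplasmic reticulum (ER), and can lose acinar gene expression and take on ductal features in an injured pancreas.

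The PTF1 complex is known to bind an E-box beside an RBPJ-type box, so the upstream sequences of Rbpjl and of 4 genes described below were searched for TGGGAA and for CACCTG, each on both strands (TTCCCA and CAGGTG). The sequences are from RefSeq, build GRCm38.p6, read 5′ to 3′ on the strand of the gene and ending at or before the annotated start. Capitals mark the motif matches.
Rbpjl, chr2:164402944-164403140, + strand: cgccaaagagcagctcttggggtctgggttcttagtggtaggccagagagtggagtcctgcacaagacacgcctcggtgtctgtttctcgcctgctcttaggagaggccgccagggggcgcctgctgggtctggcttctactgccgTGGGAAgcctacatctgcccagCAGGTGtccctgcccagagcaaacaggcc
Ptf1a, chr2:19445413-19445662, + strand: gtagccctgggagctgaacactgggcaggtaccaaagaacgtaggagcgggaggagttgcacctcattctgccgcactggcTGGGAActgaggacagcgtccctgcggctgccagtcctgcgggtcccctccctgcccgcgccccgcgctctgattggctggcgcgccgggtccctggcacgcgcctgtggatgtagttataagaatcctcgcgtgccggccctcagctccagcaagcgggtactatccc
Bhlha15, chr5:144190036-144190285, + strand: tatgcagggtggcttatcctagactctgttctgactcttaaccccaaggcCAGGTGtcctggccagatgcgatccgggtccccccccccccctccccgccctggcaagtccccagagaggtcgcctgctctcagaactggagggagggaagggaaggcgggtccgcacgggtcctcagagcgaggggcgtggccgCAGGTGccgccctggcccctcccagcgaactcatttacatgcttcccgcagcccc
Cel, chr2:28563404-28563653, - strand: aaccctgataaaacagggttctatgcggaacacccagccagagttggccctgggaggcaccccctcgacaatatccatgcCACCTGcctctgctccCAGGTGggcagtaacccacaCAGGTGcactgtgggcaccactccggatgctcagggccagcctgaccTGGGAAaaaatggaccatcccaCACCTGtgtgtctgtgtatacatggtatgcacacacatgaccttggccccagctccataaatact
Serpini2, chr3:75270079-75270328, - strand: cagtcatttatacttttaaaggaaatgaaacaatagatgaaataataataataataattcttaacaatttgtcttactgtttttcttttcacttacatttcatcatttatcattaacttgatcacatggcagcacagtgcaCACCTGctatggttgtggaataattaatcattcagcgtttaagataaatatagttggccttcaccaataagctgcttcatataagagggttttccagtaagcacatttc
Rbpjl held both motifs, TGGGAA beginning 104 bases and CACCTG 82 bases before the RefSeq start. Cel, the gene of carboxyl ester lipase, held 1 TGGGAA and 4 CACCTG. Bhlha15 held 2 CACCTG and no TGGGAA, Serpini2 held 1 CACCTG, and Ptf1a held 1 TGGGAA. Other forms of the E-box (CANNTG) are not in these counts. Nupr1 also held 1 TGGGAA. Over the 27025 promoters in the table, 21.5% held TGGGAA in the 250 bases before the start, 17.1% held CACCTG and 3.87% held both. Of 34 listed digestive enzyme genes, 28 matched the table, and 8 of those 28 (28.6%) held both motifs. Among 21 matched acinar cell-body genes, 5 held both (23.8%). The shares were lower for zymogen granule genes, 1 of 6 matched (16.7%), and for acinar regulators, 2 of 13 matched (15.4%). A match is a run of letters and was not tested as a binding site. Ctrc is named only.

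Rbpjl UMIs were unevenly spread over the 95 barcodes. A single UMI was found in 40 barcodes, 2 UMIs in 7 and 3 or more in 48, with a median of 3 and a maximum of 36. The 48 barcodes with 3 or more held 514 of the 568 Rbpjl UMIs (90.5%), and 17 barcodes with 10 or more held 341 (60.0%). The 40 barcodes with a single UMI held 7.04%. Total depth ran from 524 to 90166 UMIs with a median of 2171, against a median of 955 in the other 765 EYFP+ barcodes and 8020 in the EYFP- barcodes. No barcode sequence of an Rbpjl barcode occurred among those of the other library, and 2 sequences were shared among all kept barcodes.

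**Figure D1:**
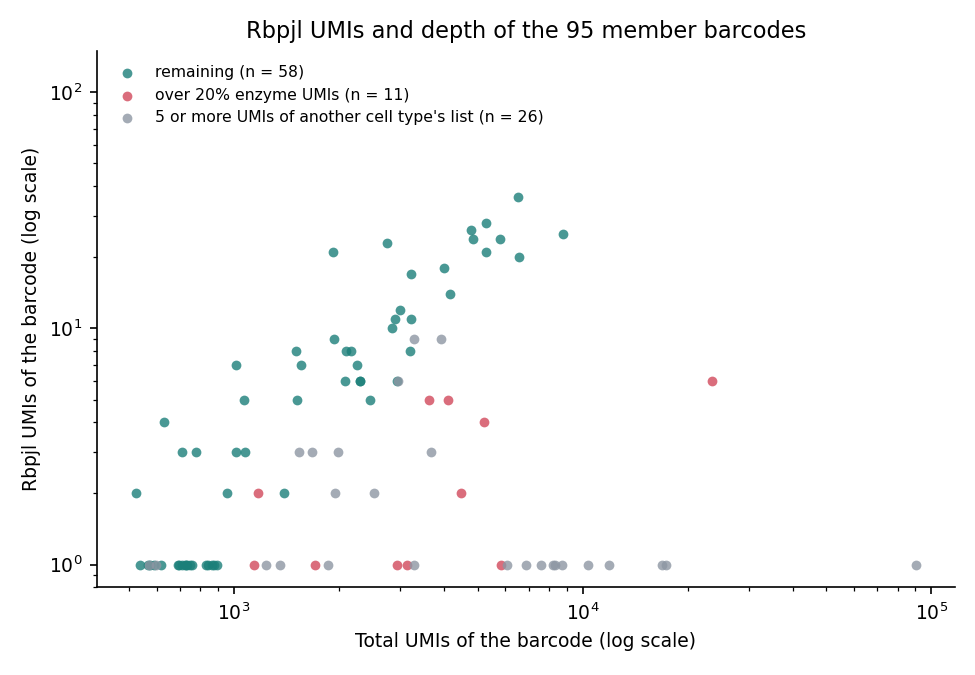
Rbpjl UMIs (y axis, log scale) against total UMIs (x axis, log scale) of each of the 95 Rbpjl barcodes, coloured by RNA makeup. The barcodes with the most Rbpjl UMIs, up to 36, had fewer than 10000 total UMIs, while the deepest barcode, at 90166 UMIs, had 1.

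Rbpjl was found in 11.0% of kept EYFP+ barcodes (95 of 860, exact 95% interval 9.03 to 13.3) and in 0 of 553 EYFP- barcodes, which by a limit of 3 counts allows a share of up to 0.542% of barcodes with a UMI (exact upper limit 0.665%). Free RNA can place a UMI in a droplet whose cell does not express the gene, so lymphocytes served as a background. Of 254 EYFP+ barcodes with at least 2 UMIs of T or B cell genes and fewer than 2 of epithelial genes, 16 held Rbpjl (6.30%, 3.64 to 10.0), at a median depth of 2314 UMIs. Of 429 EYFP+ barcodes that met neither the lymphoid nor the epithelial gate, 60 held Rbpjl (14.0%, 10.8 to 17.6), at a median depth of 761 UMIs. After each barcode was thinned to 500 UMIs the share was 3.54% in the lymphoid-gated barcodes and 10.3% in those of neither gate. The summed level was 35.4 counts per 1000000 UMIs (CPM) in the lymphoid-gated barcodes and 484 CPM in those of neither gate. Of the 36 Rbpjl UMIs in the lymphoid-gated barcodes, 26 lay in 6 barcodes with at least 2 each, which also held 11 to 99 UMIs of Nupr1, an acinar marker described below. The other 248 held 10 Rbpjl UMIs, 9.98 CPM (4.78 to 18.3), and at most 5 Nupr1 UMIs each. Both the share and the level were thus higher outside the gates than in the lymphoid-gated barcodes, whose level was not 0. Among EYFP- lymphoid-gated barcodes, which were deeper, 0 of 497 held a UMI.

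The label of acinar cells was checked against acinar genes and against genes of other cell types. Of the 95 barcodes, 27 held at least 5 UMIs of a list of T cell, B cell, macrophage, fibroblast or endothelial genes, the T cell list in 16 of them. They were 17 of the 40 barcodes with a single Rbpjl UMI, 2 of the 7 with 2, and 8 of the 48 with 3 or more. The 17 with a single Rbpjl UMI held 201161 of the 407670 UMIs of all 95 barcodes. The single deepest barcode held 22.1% of the UMIs, with 1 Rbpjl UMI, 572 of the 653 UMIs of keratin and Epcam genes and 1648 of the 2419 UMIs of ductal genes. The gate therefore collected barcodes with RNA of other cell types together with acinar ones. The 27 held 56.1% of all UMIs of the 95. A gene with none of its UMIs there therefore stands 2.28 times higher in CPM in the remaining 68. Those 68 are not free of other cells' RNA, since fewer than 5 UMIs of each list were allowed. They kept 5 UMIs of Cd3g and 6 of Cd79a. Ductal, endocrine and erythroid genes were not among the lists used. Of 174 named genes with at least 30 UMIs in the 95, the CPM was over 1.5 times higher in the 68 for 67 and over 1.5 times lower for 77. Fold differences below are over all 95 unless stated. Those of the markers and of some regulators, and most counts of gene lists, are also given over the 68. Barcodes left out by their RNA makeup were taken from the Rbpjl barcodes only, and each comparison group was kept whole.

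The 4 genes given as markers with Rbpjl were all higher in the Rbpjl barcodes than in the other EYFP+ barcodes. Nupr1, a stress-responsive chromatin protein, had 1723 UMIs in the Rbpjl barcodes (4226 CPM, 4029 to 4431), 394 in the other EYFP+ barcodes (169 CPM) and 43 in the EYFP- barcodes (8.85 CPM), 25.1-fold higher than in the other EYFP+ barcodes (22.5 to 28.0). Ctrc, chymotrypsin C, which degrades trypsinogen, had 232, 28 and 4 UMIs, a 47.5-fold difference from the other EYFP+ barcodes (32.0 to 73.1). Serpini2, a secreted serpin of the pancreas, had 202, 53 and 1 UMIs, 21.9-fold (16.1 to 30.2). Cel had 838, 939 and 34 UMIs, 5.12-fold (4.66 to 5.62), the smallest difference of the 4. Nupr1 was present in 76 of the 95 barcodes and Serpini2 in 43. Over the 68 barcodes defined above, the difference was 44.4-fold (39.7 to 49.8) for Nupr1 and 94.3-fold (63.3 to 145) for Ctrc. It was 45.9-fold (33.6 to 63.5) for Serpini2 and 10.7-fold (9.74 to 11.8) for Cel, so each of the 4 was larger there.

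At 500 UMIs per barcode the order was the same in kind. Nupr1 was found in 70.5% of the Rbpjl barcodes, 11.8% of the other EYFP+ barcodes and 4.20% of lymphoid-gated barcodes without Rbpjl, against 80.0% of the Rbpjl barcodes before thinning. Ctrc was found in 26.3%, 1.57% and 0.420%, against 52.6% of the Rbpjl barcodes before thinning. Ctrb1, a chymotrypsinogen and 1 of the most abundant enzyme transcripts, was found in 76.8%, 67.6% and 45.4%, so its share separated the groups far less than that of Nupr1 or Ctrc. Lymphoid-gated barcodes had a median depth of 2314 UMIs before thinning, close to the 2171 of the Rbpjl barcodes.

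**Figure D2:**
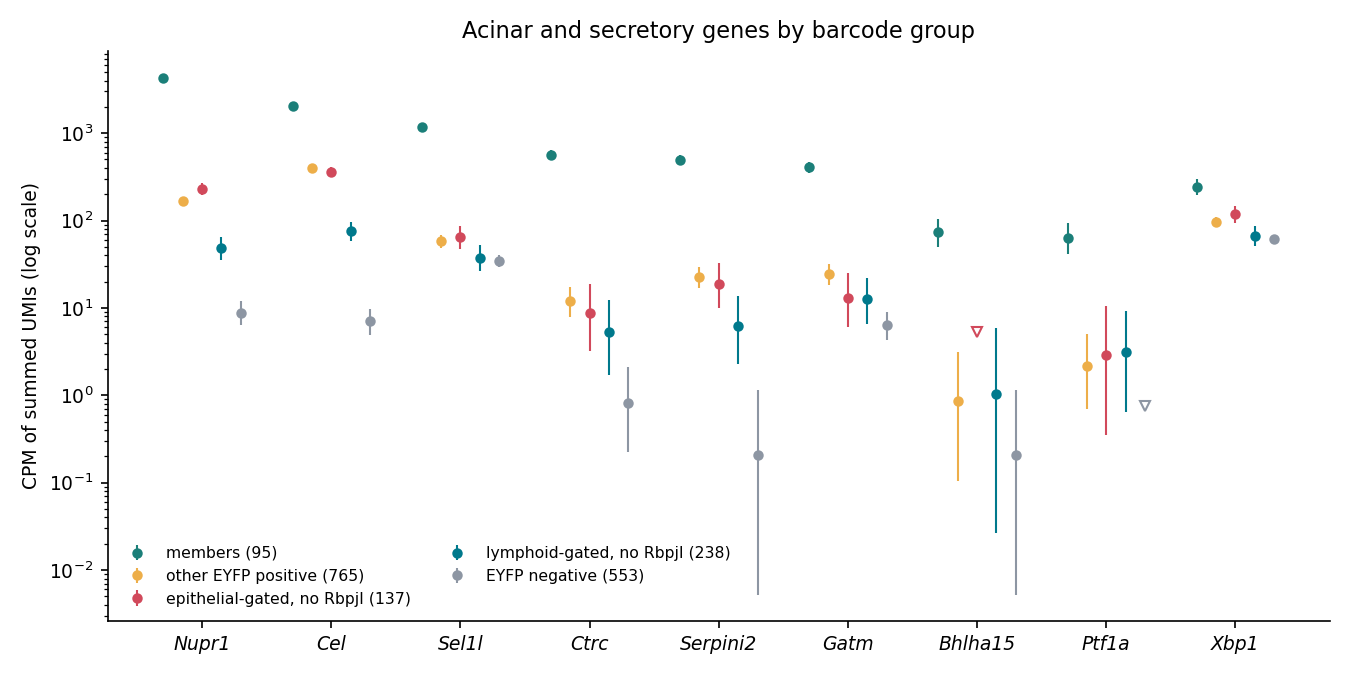
Summed level of 9 genes (y axis, CPM on a log scale) in the Rbpjl barcodes and 4 other barcode groups, with exact Poisson 95% intervals, where an open triangle marks the upper limit of a count of 0. Nupr1 stood at 4226 CPM in the Rbpjl barcodes and 8.85 CPM in the EYFP- barcodes, while Xbp1 differed least of the 9 genes between the Rbpjl and the other EYFP+ barcodes, at 243 and 96.2 CPM.

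Among acinar transcription factors the PTF1 partner Ptf1a and the secretory regulator Bhlha15 (MIST1) differed most among those measured. Ptf1a had 26 UMIs in the Rbpjl barcodes and 5 in the other EYFP+ barcodes, 29.8-fold higher (11.3 to 99.4), with 0 in the EYFP- library. Bhlha15 had 30 and 2 UMIs, a ratio of 86.0 (21.8 to 743), with 1 in the EYFP- library. Of the 22 kept EYFP+ barcodes with Ptf1a, 17 also held Rbpjl, as did 21 of the 23 with Bhlha15. Xbp1, which drives ER expansion, had 99 and 225 UMIs, 2.52-fold (1.97 to 3.21). Over the 68 barcodes, Ptf1a kept its 26 UMIs, 67.9-fold (25.7 to 227), Bhlha15 had 27, 176-fold (44.3 to 1531), and Xbp1 had 66, 3.83-fold (2.87 to 5.06).

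The remaining regulators did not share that pattern. Nr5a2, an orphan nuclear receptor of acinar cells, had 32 and 125 UMIs, a 1.47-fold difference whose interval included 1 (0.963 to 2.18). Gata6 had 31 UMIs in the Rbpjl barcodes, but 29 of them lay in 1 barcode, and the 68 held 0. The E proteins Tcf3 and Tcf12 had 24 and 44 UMIs, 1.99-fold (1.20 to 3.21) and 1.27-fold (0.893 to 1.76). Rbpj itself had 27 and 161 UMIs, a ratio of 0.962 (0.615 to 1.45), and over the 68 it had 6, a ratio of 0.487 (0.176 to 1.08). Gata4 and Spdef, too low to be counted as measured, had 4 and 5 UMIs with 0 in the other EYFP+ barcodes. Of 12 regulators measured, with at least 10 UMIs over both groups and 0.5 added to each sum, 4 were at least 2-fold higher and 0 at least 2-fold lower, where 14.4% and 13% of 11855 genes were. The median log2 difference was 0.62, beside -0.01 over all genes. Over the 68 barcodes, 5 of the 12 were at least 2-fold higher and 1 lower, beside 16.7% and 42.8% of all genes. With the enzyme-rich barcodes, described below, left out as well, 8 of the 12 were at least 2-fold higher and 1 lower, beside 23.4% and 35.4% of all genes, and the median was 1.27.

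The digestive enzymes were higher in the Rbpjl barcodes as a summed group, at 9.60% of UMIs against 2.98% in the other EYFP+ barcodes and 0.682% in lymphoid-gated barcodes. Of 27 enzyme genes measured, 24 were at least 2-fold higher and 0 at least 2-fold lower, beside 14.4% and 13% of all genes, with a median log2 difference of 1.70. Cpb1, carboxypeptidase B, had 2732 UMIs and 2592 in the other EYFP+ barcodes, 6.04-fold (5.73 to 6.38). Cela1, an elastase, had 3800 and 4565, 4.77-fold (4.57 to 4.98), and Pnlip, pancreatic lipase, had 3326 and 4525, 4.21-fold (4.03 to 4.41). Prss2, a trypsinogen whose reads may be shared with near-identical copies, had 2393 and 5791, 2.37-fold (2.26 to 2.49).

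That group difference rested on few barcodes. In 11 of the 95 barcodes the enzymes made 31.8 to 79.6% of UMIs, and in the other 84 they made at most 12.2%, with a median of 4.10%. The 11 enzyme-rich barcodes held 31337 of the 39154 enzyme UMIs (80.0%) with 13.9% of all UMIs. Without them, 6 of 26 measured enzymes were at least 2-fold higher than in the other EYFP+ barcodes and 9 at least 2-fold lower. Over all genes 18% were higher and 10.8% lower, and the median log2 difference of the enzymes was -0.16. The other EYFP+ group kept its own 25 enzyme-rich barcodes, where enzymes made a median of 48.3% of UMIs. These counts and this median therefore follow in part from a removal on 1 side. Without the barcodes of another cell type, all 27 enzymes were at least 2-fold higher and the median was 2.78, beside 16.7% of all genes higher. With both kinds left out, 12 of 26 were at least 2-fold higher and 1 lower, beside 23.4% and 35.4% of all genes, with a median of 0.94.

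The same 11 barcodes carried the zymogen granule genes. Of 9 measured, 8 were at least 2-fold higher and 0 lower than in the other EYFP+ barcodes, beside 14.4% and 13% of all genes. Without the enzyme-rich barcodes 3 were higher and 3 lower, beside 18% and 10.8%. Over the 68 barcodes 8 were higher and 1 lower, beside 16.7% and 42.8%. Gp2, the major granule membrane glycoprotein, had 212 UMIs in the 95 barcodes, 201 of them in the 11. Dmbt1 differed 9.46-fold (7.64 to 11.8) over the 95 and was found in 49 of them.

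Genes of the acinar cell body, which are not packed in granules, were higher with and without the enzyme-rich barcodes. Of 22 measured, 17 were at least 2-fold higher and 0 lower, beside 14.4% and 13% of all genes. Without the enzyme-rich barcodes 15 of 21 were higher and 0 lower, beside 18% and 10.8%, and over the 68 barcodes 17 of 22 were higher and 2 lower, beside 16.7% and 42.8%. Gatm, an enzyme of creatine synthesis, had 165 UMIs and 57 in the other EYFP+ barcodes, 16.6-fold (12.2 to 22.8), and 32.1-fold (23.4 to 44.5) over the 68. Cckar, the cholecystokinin receptor through which acinar secretion is stimulated, had 38 and 13, 16.8-fold (8.73 to 34.3). Slc39a5, a zinc transporter, had 38 and 9, 24.2-fold (11.5 to 56.9), and Pdia2, the pancreatic protein disulfide isomerase, had 152 and 112, 7.78-fold (6.06 to 10.0). Both Cckar and Slc39a5 had 0 UMIs in the EYFP- library.

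The Rbpjl barcodes fell into sets with different RNA. The 11 enzyme-rich barcodes are 1 set. Outside this set and the barcodes with at least 5 UMIs of another cell type, 37 had 3 or more Rbpjl UMIs. In these 37, Malat1, a nuclear long noncoding RNA, made a median of 16.2% of UMIs and ribosomal protein genes 0.599%. In the enzyme-rich 11, Malat1 made a median of 0.264% and ribosomal protein genes 11.5%. The Malat1 shares ran from 6.53 to 28.4% in the 37 and from 0 to 0.413% in the 11. The sets were divided by enzyme share, and the 37 also by their Rbpjl UMIs. Over all 58 barcodes outside the enzyme-rich and other-type sets, whatever their Rbpjl count, Malat1 ran from 0.323 to 28.4%, which overlapped the range of the 11. Malat1 had 140 UMIs in the 11 and 19567 in the 37, 71.9-fold lower in the 11 by CPM.

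**Figure D3:**
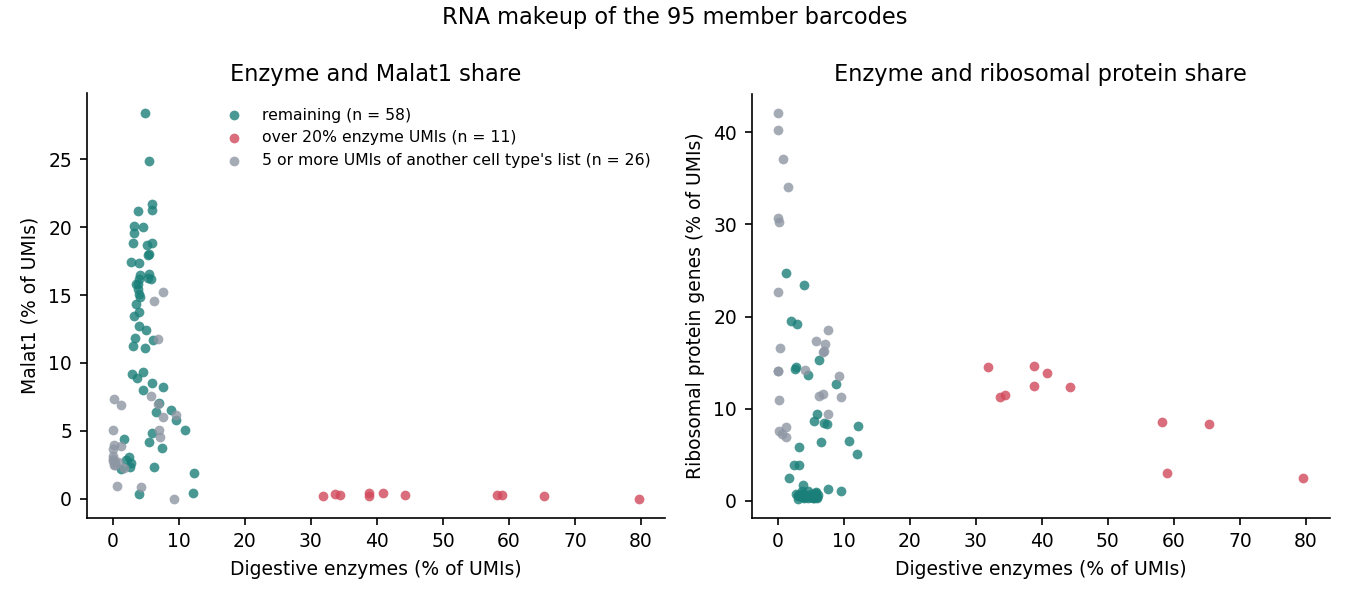
Share of UMIs from digestive enzymes (x axes, %) against the share from Malat1 (left, %) and from ribosomal protein genes (right, %) in each of the 95 Rbpjl barcodes. The 11 enzyme-rich barcodes lie at 31.8% or more on the x axis with Malat1 at or below 0.413%, and the other 84 lie at or below 12.2%.

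Nupr1 and Sel1l were higher in the 37 and most enzymes in the 11. Rbpjl itself is not compared, since the 37 were taken at 3 or more Rbpjl UMIs and the 11 had from 1, with a median of 2. Nupr1 stood at 10714 CPM (10112 to 11343) in the 37 and 2360 CPM (1978 to 2795) in the 11. Ptf1a had 23 UMIs in the 37 and 2 in the 11, and Bhlha15 had 22 and 3. Sel1l, an adaptor of ER-associated degradation, stood at 3623 CPM (3276 to 3996) and 387 CPM (243 to 587).

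The higher enzyme levels of the 11 follow from how the sets were divided, but the size differed between enzymes. Ctrb1 stood at 101259 CPM in the 11 and 3369 CPM in the 37, 30.1-fold higher (27.1 to 33.5). Pnlip was 13.3-fold higher (11.9 to 14.7). Cel stood at 7856 CPM (7143 to 8620) in the 11 and 2853 CPM (2547 to 3186) in the 37. Ctrc was the other way, at 616 CPM (429 to 857) in the 11 and 1512 CPM (1292 to 1760) in the 37, and Serpini2 likewise at 722 CPM (518 to 980) and 1295 CPM (1092 to 1526). By CPM, Ctrc and Serpini2 were thus higher in the 37. Enzymes made 55.2% of the summed UMIs in the 11 and 4.53% in the 37. A large enzyme share lowers the CPM of the other genes, Serpini2 among them, and levels per UMI outside the enzymes were not compared. The direction given for Ctrc and Serpini2 is therefore one of CPM only.

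Other transcripts that differed between these sets were not acinar. The haemoglobin gene Hbb-bs, whose copies are near-identical, had 841 UMIs in the 11 and 4 in the 37. A single enzyme-rich barcode held 959 UMIs of the erythroid list. Higher in the 37 were the long noncoding RNAs Kcnq1ot1, with 264 UMIs against 2, and Neat1, with 353 against 11. Protein-coding genes were also higher there, such as Luc7l2 with 391 against 9 and the chaperone Hsp90aa1 with 229 against 6. Btg2, an early response gene, had 367 UMIs in the 37 and 5 in the 11. Arglu1 had 172 and 0. The part of RNA quality in these differences was not tested.

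Enzyme-rich barcodes also occurred without Rbpjl. Of 36 kept EYFP+ barcodes with over 20% enzyme UMIs, 25 held no Rbpjl UMI. In these 25, enzymes made a median of 48.3% of UMIs, close to the 40.8% of the 11 with Rbpjl, at a median depth of 1912 UMIs against 3633. Nupr1 stood at 996 CPM (779 to 1255) in the 25, below the 2360 CPM of the 11. The 0 Rbpjl UMIs of the 25 follow from the split. Over all 36, Rbpjl stood at 225 CPM (150 to 323).

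Outside the enzyme-rich set, 9 barcodes held both at least 5 UMIs of another cell type's list and at least 2 Rbpjl UMIs. In 8 of the 9 the list was that of T cell genes, and the ninth held 0 T cell and 45 macrophage or monocyte UMIs. Nupr1 was found in 9 of 9, with 9 to 99 UMIs, and stood at 13462 CPM (12018 to 15031), above the 10714 CPM of the 37. Their median mitochondrial share was 12.2%, against 3.59% in the 37. T cell receptor and CD3 genes had 16 UMIs of Trac, 8 of Cd3d and 8 of Cd3e, against 0 Trac UMIs in the 37. Enzymes made a median of 6.89% of their UMIs. The doublet caller marked 1 of the 95 Rbpjl barcodes, and whether these 9 held 2 cells was not tested.

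The 17 barcodes with another type's UMIs and a single Rbpjl UMI differed from those. Nupr1 stood at 214 CPM (155 to 288), Serpini2, Ptf1a and Bhlha15 had 0 UMIs, and enzymes made a median of 0.263% of UMIs. Their median depth was 7570 UMIs. All 31 Gata6 UMIs of the Rbpjl barcodes lay in these 17.

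At the edge of the rule the barcodes were described by their Rbpjl count. Nupr1 stood at 9172 CPM in the 48 barcodes with 3 or more Rbpjl UMIs and at 437 CPM in the 40 with 1. Ctrc stood at 1278 and 43.7 CPM, Serpini2 at 1085 and 78.7 CPM, and Cel at 3841 and 721 CPM. Of the 40, however, 17 held at least 5 UMIs of another cell type's list. These 17 held 201161 of the 228859 UMIs of the 40. In the 18 single-UMI barcodes that were neither of another type nor enzyme-rich, Nupr1 stood at 3083 CPM (2203 to 4199), Ctrc at 462 CPM (170 to 1007), Serpini2 at 231 CPM (47.7 to 676) and Cel at 1233 CPM (705 to 2003). Just outside the rule lay 7 kept EYFP+ barcodes with Ptf1a or Bhlha15 but no Rbpjl, in which Nupr1 stood at 306 CPM (112 to 666) and Ctrc had 0 UMIs.

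Lymphoid-gated barcodes of the same library were also compared gene by gene, as the ratio of CPM in the Rbpjl barcodes to CPM in the lymphoid-gated ones. Over 21 enzymes with at least 30 UMIs it ran from 8.13 to 109 with a median of 14.7, and over 8 granule genes from 10.3 to 78.8 with a median of 26.0. Nupr1 stood at 87.7, Sel1l at 30.8 and Ctrc, the highest enzyme, at 109. Try4, Cela2a and Prss2 were toward the low end, with Prss2 at 9.50. Ratios outside the enzymes were as low as 0.928 for Tcf12, 1.29 for Vamp8, a SNARE of the cell-body list, and 3.62 for Xbp1. The part of free RNA in these ratios was not tested. All 23 measured enzymes were at least 2-fold higher than in the lymphoid-gated barcodes, where 27.9% of 9328 genes were higher and 14.9% lower. So were 8 of 11 regulators, but 1 of these, Gata6 at a ratio of 72.6, had all its UMIs in barcodes of another cell type. All 8 fibroblast genes were higher as well. Without the enzyme-rich barcodes 17 of the 23 enzymes were higher and 0 lower, beside 30.7% and 12.8% of all genes.

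**Figure D4:**
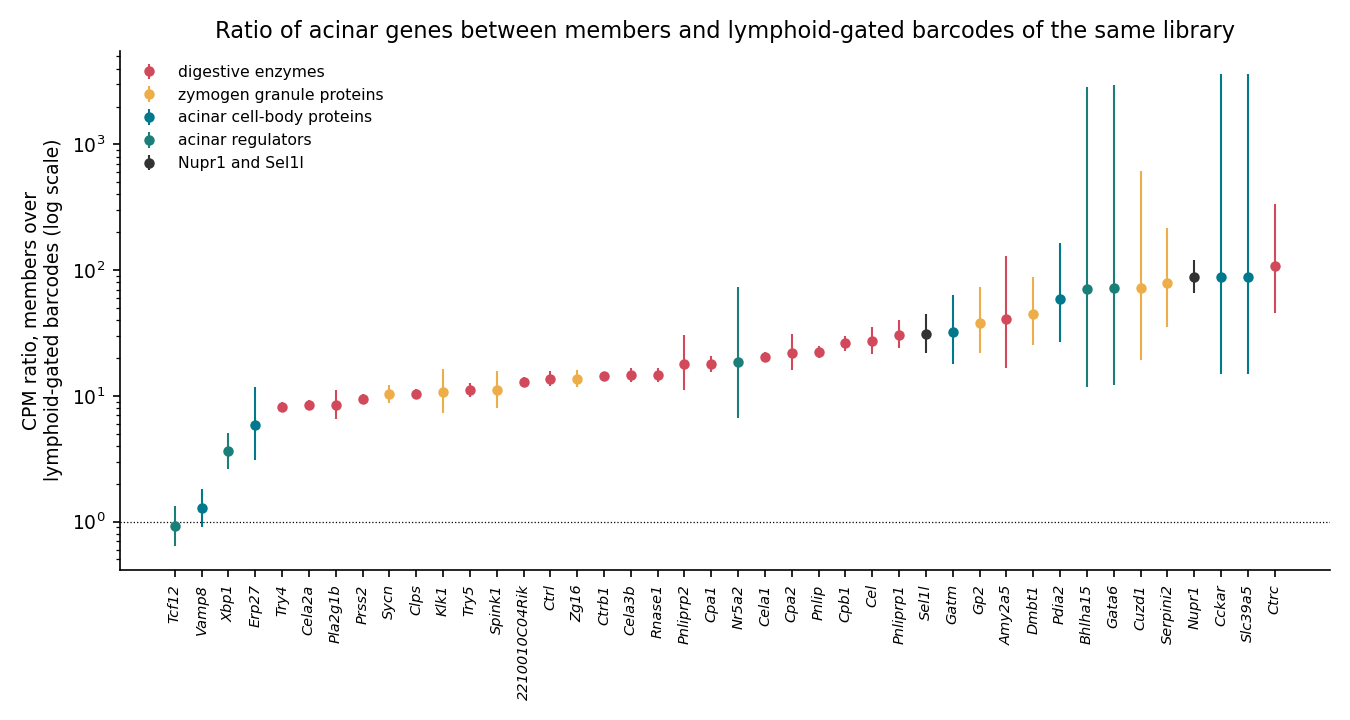
Ratio of CPM in the Rbpjl barcodes to CPM in 238 lymphoid-gated EYFP+ barcodes without Rbpjl (y axis, log scale) for genes of the acinar lists and Nupr1 and Sel1l with at least 30 UMIs, with 95% intervals that cover counting error only. The enzymes span 8.13 to 109 with a median of 14.7, and the dotted line marks equal levels.

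Against the EYFP- library, where 497 of 553 kept barcodes were lymphoid-gated, the acinar genes were set apart further. All 24 measured enzymes were at least 2-fold higher, beside 28.5% (higher) and 17.7% (lower) of 12011 genes, and the median log2 difference was 6.72. Of 12 regulators, 9 were higher and 0 lower. This was not particular to acinar genes, since the Rbpjl barcodes included ones with RNA of other cell types. All 8 fibroblast genes and 11 of 12 ductal and metaplasia genes (1 lower) were also at least 2-fold higher. All 8 T cell genes were at least 2-fold lower. These differences are between 1 library and another, so the sorted fraction and the library cannot be told apart. The libraries also differed in depth and RNA makeup. Lars2 and Gm42418 together made a median of 14.9% of UMIs in the Rbpjl barcodes and 22.4% in the other EYFP+ barcodes. In the EYFP- barcodes it was 0.257%, and the part of RNA quality was not tested.

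Several genes from outside the acinar lists had nearly all of their EYFP+ UMIs in the Rbpjl barcodes. These barcodes held 14.8% of the UMIs of kept EYFP+ barcodes, and 8584 genes with enough UMIs were ranked by the share of their UMIs found there. Shank1, a scaffold protein gene known from synapses, had all 34 of its UMIs in 20 Rbpjl barcodes, at least 65.0-fold higher than the floor of 3 UMIs over the other EYFP+ barcodes. Slc7a2, a cationic amino acid transporter, had 31 of 32 (96.9%), and Slc38a3, a glutamine transporter, had 63 of 66 (95.5%). Nphs1, the gene of nephrin, had 95.2%, Aldh1l2, a mitochondrial folate enzyme, 94.1%, and Col7a1, a collagen, 93.8%. Bhlha15 had 93.8%, Ctrc 89.2% and Ptf1a 83.9%. The ranking did not use the deeper EYFP- library. There Nphs1 was found in 12 of 553 barcodes, Shank1 in 9 and Aldh1l2 in 2, and Slc7a2, Slc38a3 and Col7a1 in 0. Most of these UMIs lay in the 37 Malat1-rich barcodes, where Slc38a3 had 58, Col7a1 74, Nphs1 33, Shank1 31, Aldh1l2 28 and Slc7a2 27.

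Further genes were named by size or from the stress list. Slc7a8, also an amino acid transporter, had 51 UMIs and 10 in the other EYFP+ barcodes, 29.2-fold (14.7 to 64.6), and Slc6a9, a glycine transporter, had 39 and 7, 31.9-fold (14.1 to 84.6). Asns, asparagine synthetase and a target of the amino acid response, had 27 and 18, 8.60-fold (4.57 to 16.6), and was present in 21 of the 95 barcodes. No enrichment was tested for genes named by size.

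ER and stress genes were higher in part. Sel1l had 474 UMIs and 135 in the other EYFP+ barcodes, 20.1-fold (16.6 to 24.6), and 42.0-fold (34.5 to 51.3) over the 68. A UMI of Sel1l was also found in 21.9% of the deeper EYFP- barcodes, against 67.4% of the Rbpjl barcodes. The chaperone Hspa5 (BiP) had 362 and 819, 2.53-fold (2.23 to 2.87), and Herpud1, of ER-associated degradation, had 104 and 156, 3.82-fold (2.95 to 4.93). Pdia4 differed by 0.819-fold (0.511 to 1.26) and Sdf2l1 by 0.596-fold (0.248 to 1.23). Of 33 ER genes, 9 were at least 2-fold higher and 0 lower, beside 14.4% and 13% of all genes, with a median log2 difference of 0.20. Without the barcodes of another cell type, 10 were higher and 10 lower, beside 16.7% and 42.8% of all genes.

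Of the stress regulators, 5 of 18 were at least 2-fold higher and 0 lower, beside 14.4% and 13% of all genes, and without the barcodes of another cell type 9 were higher and 4 lower, beside 16.7% and 42.8%. Atf3 had 22 UMIs and 51, 2.47-fold (1.43 to 4.15), whereas Atf4 differed by 1.01-fold (0.715 to 1.39) and Ddit3 by 1.21-fold (0.590 to 2.28). Nupr1 was thus not accompanied by Atf4 or Ddit3 at a similar size. Among immediate early genes, which respond within minutes to stimulation or tissue dissociation, 4 of 15 were at least 2-fold higher and 0 lower, beside 14.4% and 13% of all genes, and without the barcodes of another cell type 5 were higher and 4 lower, beside 16.7% and 42.8%. Egr1 had 368 and 635 UMIs, 3.32-fold (2.91 to 3.78), Btg2 493 and 827, 3.42-fold (3.05 to 3.83), and Jun 1030 and 2824, 2.09-fold (1.95 to 2.25). In the 37 Malat1-rich barcodes Jun stood at 4492 CPM (4106 to 4905), and in the enzyme-rich 11 at 370 CPM (229 to 565).

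The Reg genes, which encode small secreted proteins of the injured pancreas, were mixed. Reg1 had 1230 UMIs and 2253, 3.13-fold (2.92 to 3.36), with 903 of the 1230 in the 11 enzyme-rich barcodes. Without those 11 its log2 difference was -0.047, but 1606 of the 2253 UMIs lay in 25 enzyme-rich barcodes that the other EYFP+ group kept. Reg3d had 20 and 14, 8.19-fold (3.94 to 17.5), in 17 Rbpjl barcodes with at most 2 UMIs in each. Reg3b had 0 UMIs in all of the groups compared.

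Genes of the Notch pathway, whose DNA-binding factor RBPJ is the paralogue of RBPJL, were not higher as a group. Of 15 measured, 0 were at least 2-fold higher and 4 lower, beside 14.4% and 13% of all genes, and without the barcodes of another cell type 1 was higher and 8 lower, beside 16.7% and 42.8%. The Notch target Hes1 had 46 UMIs, 25 of them in 1 barcode, and 514 in the other EYFP+ barcodes, a ratio of 0.513 (0.371 to 0.695). The receptor gene Notch2 had 17 and 130, 0.750-fold (0.424 to 1.25), and the ligand gene Jag1 9 and 55, 0.938-fold (0.408 to 1.91). Proliferation genes were low throughout, with 3 UMIs of Mki67 and 3 of Top2a in the 95 barcodes. Of 9 cell cycle genes measured, 1 was at least 2-fold higher and 4 lower, beside 14.4% and 13% of all genes.

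Ductal genes depended on the single deepest barcode. Over all 95, 2 of 14 ductal and metaplasia genes were at least 2-fold higher and 3 at least 2-fold lower than in the other EYFP+ barcodes, beside 14.4% and 13% of all genes, with a median log2 difference of 0.13. Without the deepest barcode 1 was higher and 8 lower, beside 13.9% and 23.8% of all genes, and the median was -1.50. Spp1, the ductal secreted phosphoprotein, had 664 UMIs, 509 of them in that barcode. Krt8 had 199, 162 of them there, and Sox9, a ductal transcription factor, 120 with 85 there. Tff2 was the exception, with 363 UMIs of which 158 were in 1 barcode, and 327 in the 11 enzyme-rich barcodes.

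The 137 epithelial-gated EYFP+ barcodes without Rbpjl, with at least 2 UMIs of Krt7, Krt8, Krt18, Krt19 or Epcam, were compared as another group of epithelial cells. Since that gate used keratins, keratin differences follow from it. All 24 measured enzymes were at least 2-fold higher in the Rbpjl barcodes, where 14.5% of 9730 genes were higher and 20.8% lower. Without the enzyme-rich barcodes 8 of 23 enzymes were higher and 2 lower, beside 16.4% and 16.5% of all genes, and the median log2 difference was 0.08 in place of 2.04. The regulators divided over the 95, with 4 of 12 higher and 4 lower. The 17 single-UMI barcodes of another cell type held 149 of the 390 regulator UMIs of the 95 and all 31 of Gata6. The levels that follow include them. Ptf1a had 26 UMIs against 2 and Bhlha15 30 against 0, while Nr5a2 stood at 78.5 CPM against 170 CPM, Gata6 at 76.0 CPM against 235 CPM, Foxa2 at 63.8 CPM against 115 CPM and Onecut1 at 31.9 CPM against 112 CPM. Nupr1 stood at 232 CPM in the epithelial-gated barcodes, above the 48.2 CPM of the lymphoid-gated ones and below the 4226 CPM of the Rbpjl barcodes.

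The endocrine and immune genes that were lowest in the Rbpjl barcodes had most of their UMIs in other cells of the library. Ppy, pancreatic polypeptide, had 24 UMIs and 21557 in the other EYFP+ barcodes, of which 21511 were in the epithelial-gated ones, and Pyy had 10 and 7756. Jchain, an immunoglobulin joining chain, had 0 and 1287. Of 12 MHC class I genes 8 were at least 2-fold lower, and of 7 MHC class II genes 6 were, beside 13% of all genes. Without the barcodes of another type all 12 and all 7 were lower, beside 42.8% of all genes. These counts follow in part from the choice, since barcodes with immune cell RNA were left out of the Rbpjl barcodes only. With that choice B2m fell from 209 to 17 UMIs and Cd74 from 324 to 26. H2-K1 stood at 172 CPM (104 to 269) in the 37 Malat1-rich barcodes and 1690 CPM (1609 to 1775) in the lymphoid-gated barcodes.

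Clustering of both libraries together, with Rbpjl among the genes, gave 19 clusters. Cluster 11 held 54 barcodes, all EYFP+, of which 52 were Rbpjl barcodes (96.3%, 87.3 to 99.5). It held 42 of the 48 with 3 or more Rbpjl UMIs and 501 of the 568 Rbpjl UMIs. Lrrc7, Slc38a3, Slc7a2, Rbpjl and Aldh1l2 led it. Cluster 15 held 30 EYFP+ barcodes and 1 EYFP- barcode, with 11 Rbpjl barcodes (36.7%, 19.9 to 56.1) and a median enzyme share of 59.0%, and was led by Amy2a2, Gp2 and Pnliprp1. The other 32 Rbpjl barcodes lay in 9 further clusters at 1.49 to 11.1% of their EYFP+ barcodes. Because the cells' own genes formed the clusters, their leading genes are a description.

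**Figure D5:**
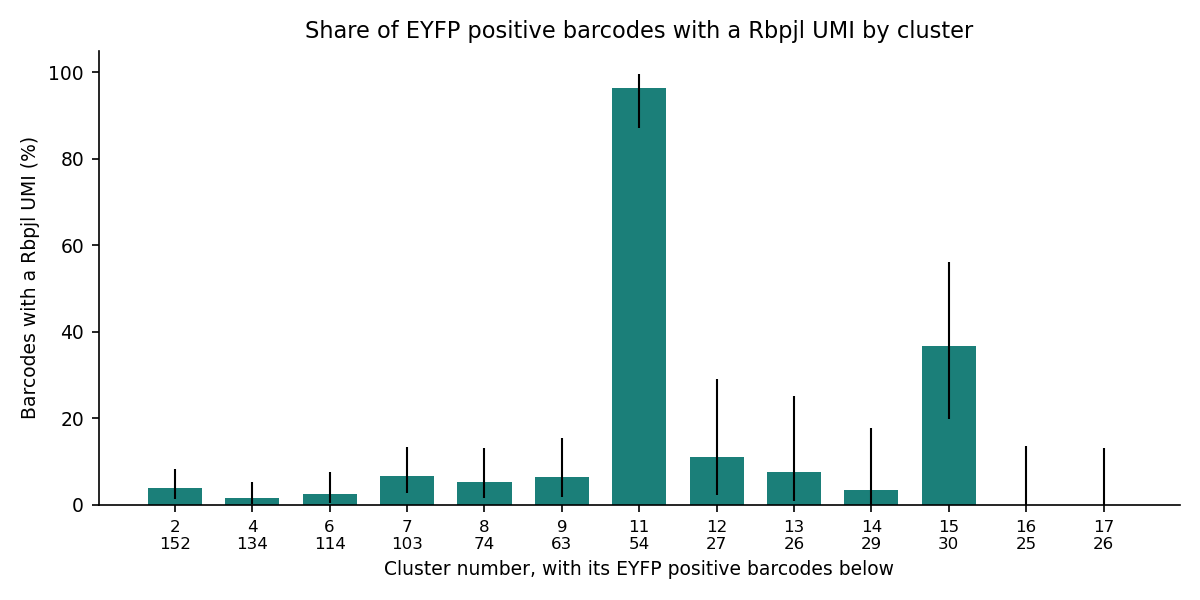
Percentage of EYFP+ barcodes with an Rbpjl UMI (y axis, bars from 0, exact 95% intervals covering counting error only) in each cluster with at least 10 EYFP+ barcodes (x axis, with their number). Cluster 11 stands at 96.3% and cluster 15 at 36.7%, and the others at 11.1% or less.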

How the data were processed

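The authors deposited a matrix of raw UMI counts (whole numbers, not normalized) for each of 2 libraries. Per the labels' protocols the kit was the Chromium 5′ v1.1 kit. Cell Ranger 2.1.0 and GRCh38 are given per the submitters' processing notes, whereas version 3.1.0 is given per the file headers and the gene identifiers are mouse ones. Which build the reads were mapped to is therefore uncertain. The promoter table is of GRCm38.p6.

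The filter on barcodes was 200 genes and 20% mitochondrial UMIs, after which those with at least 1 Rbpjl UMI were selected. Bases in exons of GENCODE M21 were left out of the printed sequences. UMIs were summed per barcode group and given as CPM with exact Poisson intervals, ratios with exact conditional intervals, and shares with exact Clopper-Pearson intervals, all at 95%. With 1 library per group there was no test. A count of 0 was compared at a floor of 3 UMIs over the group. List genes needed 10 UMIs over both groups, and list differences added 0.5 to each sum. Lymphoid-gated barcodes had at least 2 UMIs of a list of T and B cell genes together and fewer than 2 of Krt7, Krt8, Krt18, Krt19 and Epcam; epithelial-gated barcodes met the reverse. Barcodes were thinned to 500 UMIs, and 0 were too shallow. Clustering used scanpy 1.11.5 (2000 variable genes, 30 components, 15 neighbours, Leiden resolution 1.0) without batch correction. Doublets were kept, and Scrublet marked 2 of 860 EYFP+ and 5 of 553 EYFP- barcodes. The fold calculation was tested on simulated data.

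The members and lists were chosen with earlier results of these data known. Named genes were Rbpjl and its 4 markers, the regulators, the 12 genes higher and 12 lower with at least 30 UMIs and the interval bound farthest from 1, up to 4 genes per further list by UMIs, and the 12 genes most like Rbpjl by share of UMIs. Genes outside that rule, such as Atf3, Asns, Herpud1, Pdia4, Sdf2l1, Egr1, Cckar, Slc39a5 and those contrasting the sets of Rbpjl barcodes, were named after their values were seen. The alternatives were other filters, Rbpjl minimums, gates and depths, and leaving out sets of barcodes.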

Additional observations from a re-analysis of the deposited data

Results flagged for a closer look

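Rbpjl was also present in EYFP+ barcodes that did not meet the limits on detected genes and mitochondrial share. In that library 59 such barcodes held 164 Rbpjl UMIs, and 15 of them held 3 or more, with a maximum of 22. In the EYFP- library 1 such barcode held 1 UMI. Of the 59, 38 had fewer than 200 genes and 41 had over 20% mitochondrial UMIs, and their median was 131 genes and 34.3% mitochondrial UMIs. Nupr1 had 224 UMIs in them, Serpini2 had 26, and enzymes made 4.97% of their UMIs.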

How the results depend on the processing

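The counts of barcodes and the medians of the enzyme list depended on how barcodes were chosen. With a filter of 500 genes and 10% mitochondrial UMIs there were 44 Rbpjl barcodes, with every deposited barcode 154 and 1 in the EYFP- library, and with at least 2 Rbpjl UMIs 55. The enzyme median (log2) against the other EYFP+ barcodes was 2.55, 1.12 and 2.61 under these choices, 0.76 at 500 UMIs per barcode and 1.24 as a mean over cells. The other EYFP+ group kept its own 25 enzyme-rich barcodes in the next values. Without barcodes of another type the enzyme median was 2.78, and without the enzyme-rich Rbpjl barcodes it reversed to -0.16, as did Reg1 (-0.047). Against the EYFP- barcodes it was 5.75 with every barcode, 7.58 with 2 Rbpjl UMIs, 5.51 at 500 UMIs, 5.77 as a mean over cells, 7.08 without the deepest barcode, 7.78 without barcodes of another type and 4.96 without the enzyme-rich ones. Against lymphoid-gated barcodes it was 5.29 with the stricter filter, 3.25 with every barcode, 4.87 with 2 Rbpjl UMIs, 2.06 at 500 UMIs, 2.41 as a mean over cells, 4.49 without the deepest barcode, 4.76 with a lymphoid gate of 3 UMIs, 5.22 without barcodes of another type and 2.14 without the enzyme-rich ones. The regulator median against the other EYFP+ barcodes was 1.68 at 500 UMIs. The number of enzyme-rich barcodes was 6 with the stricter filter, 6 with 2 Rbpjl UMIs, 6 at 500 UMIs and, by construction, 0 without them. Of 1023 alternative values of list medians and gene folds, 987 kept the sign. Keeping the sign is a lenient measure. Of 94 values of barcode counts and of enzyme and regulator medians, 31 moved and 1 reversed, and of 1048 further values 301 moved and 1 reversed. A moved value lay outside the interval of the main value or, where there was none, past a set limit. Leaving out barcodes of another type or enzyme-rich ones was chosen after seeing the data. Except where barcodes were left out by makeup, the cause of a change was not tested. No paired analysis was possible because each fraction had 1 library. Depth limits low genes most, since Ptf1a rests on 26 UMIs and Bhlha15 on 30.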
